A study of Mus musculus with 114 samples.

Results

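The genes described here encode 10 glycoproteins and elastic fibre proteins of the extracellular matrix, fibronectin (Fn1), SPARC (Sparc), thrombospondin 1 and 2 (Thbs1 and Thbs2), tenascin C (Tnc), periostin (Postn), fibrillin 1 (Fbn1), elastin (Eln), versican (Vcan) and fibulin 2 (Fbln2). They were chosen by symbol from the 29132 genes of the table, and all 10 were found. Their RNA was measured by RNA-seq in adipocytes from the perigonadal fat of 38 male C57BL/6J mice without any engineered allele. From 6 weeks of age they received chow (CD) or high fat food (HFD) over 8, 20 or 34 weeks, with 6 mice in each group except for 8 CD mice at 34 weeks. Adipocytes were taken as the floating fraction of collagenase-digested fat. Each value is the CPM (counts per 1000000 reads on the listed genes) of 1 mouse, in which the authors had merged 3 technical replicates. The labels do not say how mice were housed or grouped into batches, so that the p-values measure the spread between these mice only.

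The extracellular matrix of fat surrounds each adipocyte and must be remodelled as the cells enlarge. Fibrillins assemble into microfibrils on which elastin is laid down, and fibulins bind both. Fibronectin is the adhesive fibril that cells hold through integrins, versican is a large hyaluronan-binding proteoglycan, and SPARC, periostin, tenascin C and the thrombospondins are matricellular proteins, which sit in the matrix and modulate how cells respond to it rather than bear load. In fat, most of these proteins are known as products of progenitor cells and fibroblasts, and fibronectin is made by macrophages as well.

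RefSeq promoters (250 bases before to 50 after a transcription start, GRCm38.p6) were at hand for 7 of the 10 genes, and none for Fn1, Thbs1 and Eln. The promoters of Fbn1, Postn, Fbln2, Sparc and Tnc are shown because these genes carry the results. Fbn1, a microfibril gene, and Postn, a matricellular gene, were called higher in HFD mice at each time. Their 34 week calls were lost under some settings, as given below. Fbln2, a fibulin gene, was called higher in HFD mice at 8 and 20 weeks, and Tnc was lower at 34 weeks in both diets. Capitals mark the searched motifs, which were the CArG box of SRF, the AP-1 site TGACTCA, the TEAD site GGAATG, the SMAD-type element CAGACA and the TATA element TATAAA, on either strand.
Fbn1, minus strand of chr2:125506389-125506688: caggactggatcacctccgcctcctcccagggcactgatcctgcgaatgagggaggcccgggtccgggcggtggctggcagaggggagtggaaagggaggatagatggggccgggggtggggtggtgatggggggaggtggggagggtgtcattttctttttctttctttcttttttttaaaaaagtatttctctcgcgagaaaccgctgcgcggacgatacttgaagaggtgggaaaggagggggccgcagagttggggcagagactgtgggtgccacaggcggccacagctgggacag
Fbln2, plus strand of chr6:91212514-91212813: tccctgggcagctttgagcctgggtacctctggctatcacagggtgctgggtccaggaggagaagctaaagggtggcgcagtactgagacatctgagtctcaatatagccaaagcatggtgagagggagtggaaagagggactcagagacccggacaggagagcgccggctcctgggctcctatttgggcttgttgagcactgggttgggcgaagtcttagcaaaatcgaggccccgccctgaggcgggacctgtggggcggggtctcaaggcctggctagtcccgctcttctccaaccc
Postn (the second of 2 starts), plus strand of chr3:54360857-54361156: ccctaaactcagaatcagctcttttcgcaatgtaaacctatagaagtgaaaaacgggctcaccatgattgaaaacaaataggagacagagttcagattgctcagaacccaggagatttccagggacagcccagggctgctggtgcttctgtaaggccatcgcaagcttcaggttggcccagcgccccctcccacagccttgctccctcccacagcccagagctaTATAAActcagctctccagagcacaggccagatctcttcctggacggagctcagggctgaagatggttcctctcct
Sparc, minus strand of chr11:55420031-55420330: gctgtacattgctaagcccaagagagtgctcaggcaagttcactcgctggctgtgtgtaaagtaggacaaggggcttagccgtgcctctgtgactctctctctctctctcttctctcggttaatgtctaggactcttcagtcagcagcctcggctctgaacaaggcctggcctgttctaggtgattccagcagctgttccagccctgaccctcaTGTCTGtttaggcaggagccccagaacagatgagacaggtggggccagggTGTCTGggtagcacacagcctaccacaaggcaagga
Tnc (the second of 2 starts), minus strand of chr4:64046887-64047186: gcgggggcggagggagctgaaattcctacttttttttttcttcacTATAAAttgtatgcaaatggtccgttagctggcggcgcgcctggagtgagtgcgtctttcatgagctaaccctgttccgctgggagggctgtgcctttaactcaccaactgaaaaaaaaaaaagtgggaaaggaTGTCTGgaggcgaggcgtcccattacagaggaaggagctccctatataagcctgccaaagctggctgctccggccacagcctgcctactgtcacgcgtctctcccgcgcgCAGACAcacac
In these windows TATAAA began 26 bases before the start in Postn and 205 bases before it in Tnc. Postn, Tnc and Thbs2 held it on either strand, as did 13.62% of the 32851 promoters in the RefSeq table. CAGACA or its reverse complement occurred in Sparc, Thbs2 and Tnc and in 21.04% of all promoters. The CArG box, the AP-1 site and the TEAD site were in 0 of the 9 promoters of the members, and in 1.63%, 5.2% and 14.66% of all promoters. The Fbn1 and Fbln2 windows held none of these letters and were each 60.3% G and C, against 53.0% in the Postn window. A match or its absence describes these windows only.

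The libraries held 9275711 to 15480388 reads on genes, so that 1 read equals 0.0646 to 0.108 CPM. Adipocyte markers were detected in every mouse for 13 of 13 genes, and their summed level ran from 28155 to 87934 CPM. With HFD 2, 10 and 10 of the 13 were called lower and 1, 1 and 0 higher at 8, 20 and 34 weeks. Markers of other cells were present too. The summed level of 16 macrophage markers was 398 to 1961 CPM in CD and 1228 to 3908 CPM in HFD mice at 8 weeks, 1009 to 3893 and 5612 to 11387 CPM at 20 weeks, and 1297 to 14837 and 6387 to 19094 CPM at 34 weeks. With HFD 11, 14 and 15 of these 16 markers were called higher at 8, 20 and 34 weeks, as were 10, 12 and 7 of 16 tested progenitor and fibroblast markers, of which 1 was called lower each time. No marker on these 3 lists was at 0 in every mouse of a group. The sum of all 18 progenitor and fibroblast markers is mostly Gsn, which adipocytes express as well, and ran from 12171 to 17207 CPM in CD and 8920 to 15270 CPM in HFD mice at 8 weeks, 11732 to 14496 and 10292 to 16350 CPM at 20 weeks, and 8307 to 14243 and 7955 to 17474 CPM at 34 weeks. Of 12 endothelial markers 12, 9 and 9 were called higher with HFD, of 8 mural markers 5, 4 and 4 (with 0, 1 and 1 lower), of 3 mesothelial markers 2, 0 and 0, and of 2 erythroid markers 1, 0 and 2. No T cell, B cell, epididymis or testis marker passed the filter on low values, and the first 2 lists summed to at most 4.85 and 6.59 CPM in a mouse. The 20 week CD mouse 1 stood apart from its group, with a mean macrophage marker level of 6.95 on the log2(CPM + 1) scale against 4.14 to 5.55 in the other 20 week CD mice. In such bulk RNA fewer cells of a type and less RNA per cell cannot be told apart.

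The members differed widely in level. Per kilobase of exon, Sparc and Thbs1 were the 2 highest members in all 6 groups. The length was the union of all annotated exons of a gene (3788 bases for Sparc and 6073 for Thbs1). The order of these 2 members can depend on the length used. In 8 week CD mice the median was 998 CPM per kilobase for Thbs1 and 590 for Sparc, without overlap between their ranges (729 to 1518 and 528 to 700), followed by 25.7 for Thbs2 and 9.64 for Fn1. Eln, Fbn1 and Vcan were the 3 lowest members in these mice, at medians of 0.109, 0.269 and 0.358 CPM per kilobase. With HFD for 8 weeks the order of the first 2 was turned, with a median of 1570 CPM per kilobase for Sparc and 543 for Thbs1, although the ranges of both (858.5 to 2177 and 340 to 1181) overlapped. The ranges of Thbs2 and Fn1 in 8 week CD mice (7.30 to 43.6 and 3.84 to 33.1) overlapped as well, and so did those of Fbn1 and Vcan (0.195 to 0.741 and 0.231 to 0.718).

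**Figure D1:**
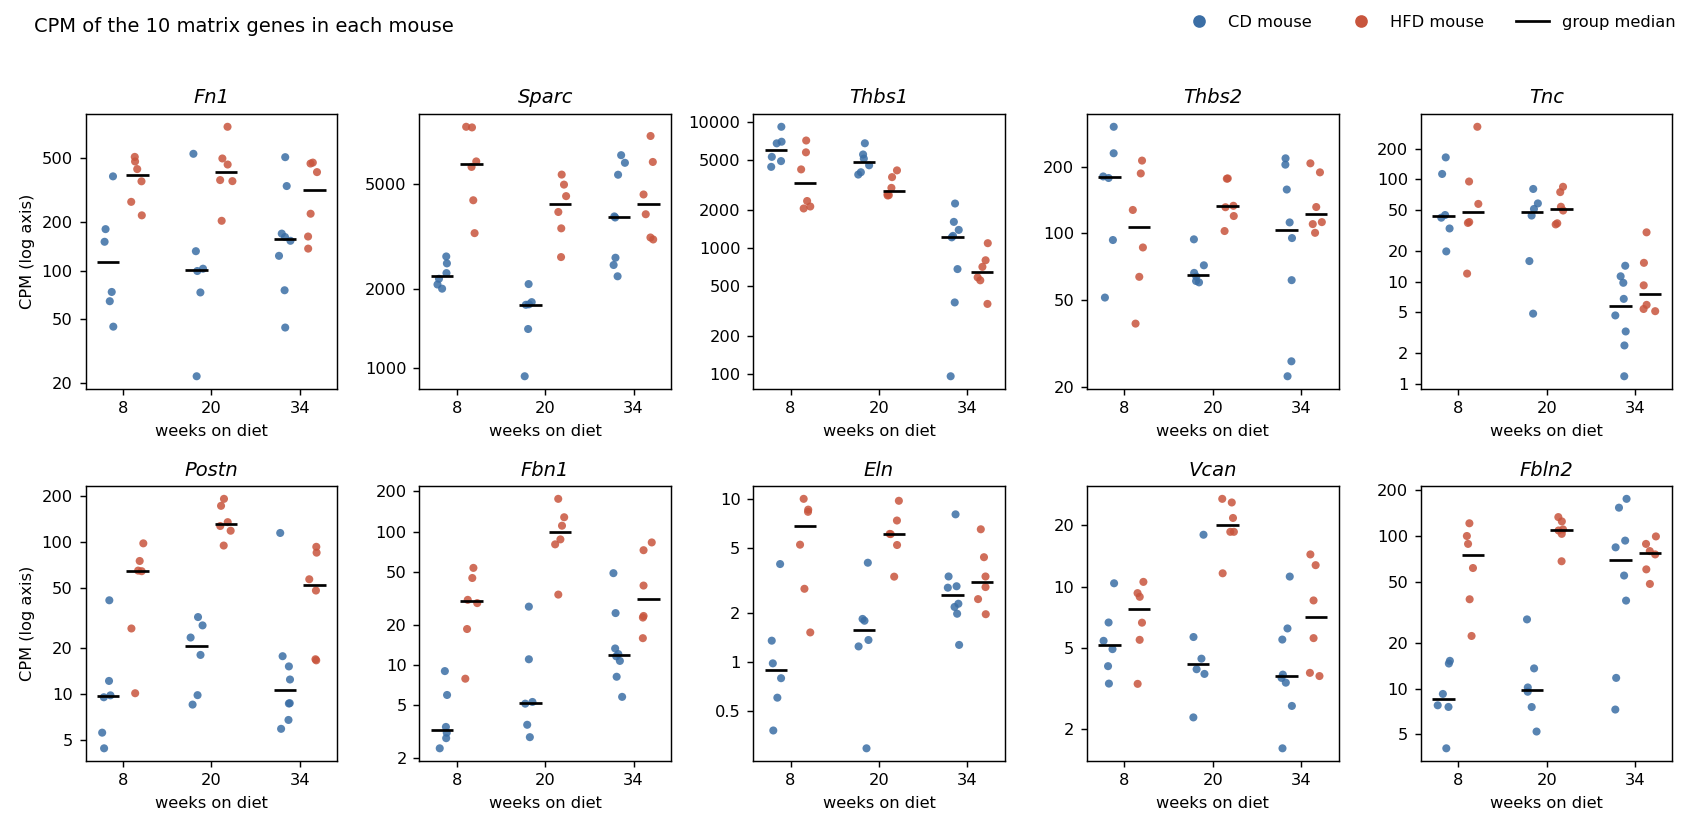
CPM of each of the 10 genes (log axis, a scale of its own for each gene) by weeks on diet, with 1 point per mouse (CD blue, HFD red) and a line at the group median. For Postn, Fbn1 and Fbln2 the 20 week HFD mice lie entirely above the CD mice, while Thbs1 and Tnc are lowest at 34 weeks in both diets.

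The diets were compared at each time with limma on log2(CPM + 1), which asks how these genes differ between the diets at that time. Whether the difference changes between times is a separate question, taken up below with interaction terms. Genes with a mean above 2 on that scale were tested (10343 genes, 9 members), with adjusted p under 0.05 as the threshold. Eln had a mean of 1.99 and so was left out of this test. With HFD 5 members were higher at 8 weeks (Fn1, Sparc, Postn, Fbn1 and Fbln2), where 29.8% of all genes tested were called higher and 44.9% in either direction. At 20 weeks 6 members were higher (the same genes and Vcan) against 38.3% higher and 57.0% in either direction among all genes. At 34 weeks 2 members, Postn and Fbn1, were higher, and 27.5% of all genes were called higher and 43.2% in either direction. None of the 9 members was called lower with HFD at any time. The median log2 fold change of the 9 members was 1.32, 1.77 and 0.67 at 8, 20 and 34 weeks, and that of all genes tested 0.11, 0.14 and 0.07. Groups did not overlap for 2 members at 8 weeks (Sparc and Fbln2), for 5 at 20 weeks (Sparc, Thbs2, Postn, Fbn1 and Fbln2) and for 0 at 34 weeks, where 15.7%, 26.1% and 1.47% of all genes tested had every HFD mouse above every CD mouse.

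**Figure D2:**
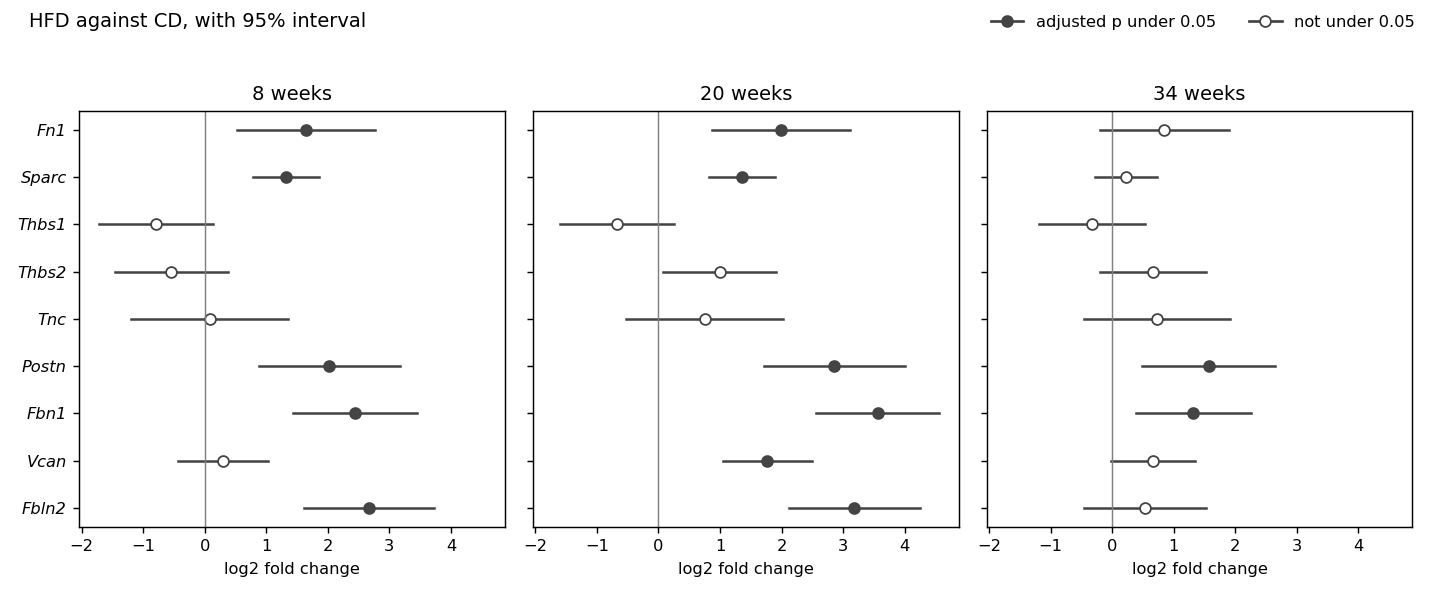
Log2 fold change of HFD against CD on the log2(CPM + 1) scale for the 9 members tested (points) with the 95% interval (lines) at 8, 20 and 34 weeks, filled where the adjusted p of limma is under 0.05. The values of Fbn1, Postn and Fbln2 are highest at 20 weeks, at 3.57, 2.86 and 3.18, and those of Thbs1 are below 0 at each time.

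Fn1 (chr1:71585473-71653280) encodes fibronectin, the fibril that integrins bind first when matrix is laid down. At 8 weeks its lowest, median and highest values were 44.9, 113 and 387 CPM in CD mice and 221, 395 and 511 CPM in HFD mice. After 20 weeks they were 22.1, 101 and 534 CPM in CD and 205, 412 and 787 CPM in HFD mice. At 34 weeks they were 44.4, 158 and 509 CPM in CD and 137, 319 and 471 CPM in HFD mice. The HFD median was above the CD median at each time, but the ranges overlapped throughout, and 1 CD mouse at 20 weeks (mouse 1) was above 5 of the 6 HFD mice. Mean CPM was 2.51 times as high in HFD as in CD mice at 8 weeks and 2.77 times as high at 20 weeks. The log2 fold change of Fn1 was 1.65 (SE 0.55, adjusted p = 0.016 by limma) at 8 weeks, 1.99 (SE 0.55, adjusted p = 0.0028) at 20 weeks and 0.85 (SE 0.52, adjusted p = 0.18) at 34 weeks. With array weights the 34 week value of 1.25 passed (adjusted p = 0.039 by limma). The call at 8 weeks was lost with edgeR's quasi-likelihood test on whole reads (log2 fold change 1.21, adjusted p = 0.073) and without CD mouse 2 (1.38, adjusted p = 0.051 by limma).

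Fbn1 (chr2:125300594-125506485), the main fibrillin of microfibrils, had the highest fold change of the members at 20 weeks. Its lowest, median and highest values were 2.37, 3.26 and 8.98 CPM in CD and 7.88, 29.9 and 53.4 CPM in HFD mice at 8 weeks, so that 5 of 6 HFD mice were above every CD mouse. The 20 week values were 2.87, 5.19 and 27.4 CPM in CD and 33.7, 99.0 and 176 CPM in HFD mice, without overlap. At 34 weeks the CD mice held 5.76, 11.8 and 48.8 CPM and the HFD mice 15.9, 31.3 and 82.9 CPM, and the groups overlapped. Mean Fbn1 was 6.93, 11.2 and 2.54 times as high in HFD as in CD mice at the 3 times. On the log2 scale the difference was 2.44 (SE 0.49, adjusted p = 0.00024 by limma), 3.57 (SE 0.49, adjusted p = 5.4e-07) and 1.32 (SE 0.46, adjusted p = 0.021). The call at 34 weeks was lost without HFD mouse 2 (1.08, adjusted p = 0.075 by limma) or HFD mouse 3 (1.12, adjusted p = 0.070).

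Fbln2 (chr6:91212460-91272540) encodes fibulin 2, which binds fibrillin, fibronectin and versican. In CD mice its lowest, median and highest values were 4.05, 8.49 and 15.2 CPM at 8 weeks, 5.22, 9.85 and 28.4 CPM at 20 weeks and 7.28, 69.7 and 175 CPM at 34 weeks. In HFD mice they were 22.1, 75.3 and 121 CPM, 68.4, 110 and 133 CPM, and 48.5, 77.8 and 99.5 CPM. All HFD mice were above all CD mice at 8 and 20 weeks, whereas at 34 weeks the HFD mice lay inside the range of the CD mice. Mean Fbln2 was 7.41 and 8.72 times as high in HFD as in CD mice at 8 and 20 weeks. The fitted log2 fold change was 2.66 (SE 0.52, adjusted p = 0.00017 by limma) at 8 weeks, 3.18 (SE 0.52, adjusted p = 5.8e-06) at 20 weeks and 0.53 (SE 0.49, adjusted p = 0.39) at 34 weeks. At 34 weeks its sign was not stable, at -0.10 with edgeR and -0.09 with DESeq2.

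Eln (chr5:134702595-134747368), the elastic core of the fibre, was the member with the fewest reads, down to 4 in a mouse. Its lowest, median and highest values were 0.379, 0.886 and 3.98 CPM in CD and 1.52, 6.79 and 10.01 CPM in HFD mice at 8 weeks. At 20 weeks they were 0.294, 1.57 and 4.06 CPM in CD and 3.33, 6.09 and 9.74 CPM in HFD mice, and at 34 weeks 1.27, 2.56 and 8.04 CPM and 1.96, 3.11 and 6.51 CPM. Of 6 HFD mice 4 at 8 weeks, 5 at 20 weeks and 0 at 34 weeks were above every CD mouse. With the filter lowered to a mean above 1 the log2 fold change of Eln was 1.55 (SE 0.35, adjusted p = 0.00069 by limma) at 8 weeks, 1.47 (SE 0.35, adjusted p = 0.00056) at 20 weeks and 0.21 (SE 0.32, adjusted p = 0.62) at 34 weeks.

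Vcan (chr13:89655309-89743027) encodes versican, the proteoglycan that carries hyaluronan and to which fibulins bind. At 8 weeks its lowest, median and highest values were 3.34, 5.18 and 10.4 CPM in CD and 3.33, 7.78 and 10.6 CPM in HFD mice, which is nearly the same range. After 20 weeks they were 2.28, 4.18 and 18.0 CPM in CD and 11.6, 20.2 and 27.0 CPM in HFD mice. Only CD mouse 1 at 20 weeks reached the HFD range. At 34 weeks they were 1.61, 3.63 and 11.2 CPM in CD and 3.64, 7.07 and 14.4 CPM in HFD mice, again with overlap. The log2 fold change of Vcan was 0.30 (SE 0.36, adjusted p = 0.51 by limma) at 8 weeks, 1.77 (SE 0.36, adjusted p = 9.5e-05) at 20 weeks and 0.66 (SE 0.34, adjusted p = 0.11) at 34 weeks. It passed at 34 weeks without CD mouse 5 (0.84, adjusted p = 0.033 by limma) and without the mouse with the most macrophage RNA in each group (0.99, adjusted p = 0.0053), and at 8 weeks with array weights (0.51, adjusted p = 0.049).

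Postn (chr3:54359267-54391041) encodes periostin, which crosslinks collagen and fibronectin fibrils. It was higher with HFD at all 3 times. Its lowest, median and highest values were 4.41, 9.69 and 41.5 CPM in CD and 10.2, 64.8 and 98.3 CPM in HFD mice at 8 weeks. The 20 week values were 8.54, 20.9 and 32.2 CPM in CD and 95.1, 132 and 193 CPM in HFD mice. The diets overlapped at 8 weeks, where 4 of 6 HFD mice were above every CD mouse, and were far apart at 20 weeks. At 34 weeks the values were 5.92, 10.6 and 115 CPM in CD and 16.7, 52.6 and 93.3 CPM in HFD mice, and 1 CD mouse (mouse 5) held the highest value of both groups. Mean Postn was 4.10, 6.99 and 2.22 times as high in HFD as in CD mice. The log2 fold change was 2.02 (SE 0.57, adjusted p = 0.0046 by limma), 2.86 (SE 0.57, adjusted p = 7.1e-05) and 1.57 (SE 0.53, adjusted p = 0.017). The 34 week call was lost with edgeR (1.12, adjusted p = 0.10), with DESeq2 (1.11, adjusted p = 0.080), with each time fitted alone (1.57, adjusted p = 0.066 by limma) and without HFD mouse 2 (1.35, adjusted p = 0.0565 by limma).

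Sparc (chr11:55394159-55420080) encodes a collagen-binding matricellular protein that adipocytes secrete. At 8 weeks its lowest, median and highest values were 2000, 2237 and 2652 CPM in CD and 3252, 5947 and 8246 CPM in HFD mice. At 20 weeks they were 930, 1741 and 2083 CPM in CD and 2638, 4204 and 5428 CPM in HFD mice. The diets did not overlap at either time. At 34 weeks the CD mice held 2229, 3746 and 6433 CPM and the HFD mice 3077, 4199 and 7609 CPM, and only 1 HFD mouse was above every CD mouse. On the log2 scale the difference was 1.32 (SE 0.27, adjusted p = 0.00022 by limma) at 8 weeks, 1.36 (SE 0.27, adjusted p = 5.7e-05) at 20 weeks and 0.23 (SE 0.25, adjusted p = 0.46) at 34 weeks. Mean Sparc was 2.62 and 2.57 times as high in HFD as in CD mice at the first 2 times.

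Tnc (chr4:63959785-64047015) encodes tenascin C, a hexameric glycoprotein of wounds and scars that binds the receptor TLR4. Its lowest, median and highest values were 19.7, 43.5 and 164 CPM in CD and 12.0, 47.9 and 327 CPM in HFD mice at 8 weeks. After 20 weeks they were 4.86, 47.8 and 80.5 CPM in CD and 36.2, 51.7 and 84.5 CPM in HFD mice, and at 34 weeks 1.19, 5.72 and 14.3 CPM and 5.13, 7.55 and 30.3 CPM. The diets overlapped at each time, with the 2 highest values in HFD mouse 5 and CD mouse 1 at 8 weeks. The fitted log2 fold change was 0.08 (95% interval -1.19 to 1.35, adjusted p = 0.93 by limma) at 8 weeks, 0.75 (-0.52 to 2.02, adjusted p = 0.31) at 20 weeks and 0.73 (-0.46 to 1.92, adjusted p = 0.32) at 34 weeks. With TMM or median-of-ratios scaling the 8 week value was -0.03 or -0.04.

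Thbs1 (chr2:118111876-118127133) encodes thrombospondin 1, which binds CD36 and CD47 and can activate latent TGF-beta. Its lowest, median and highest values were 4426, 6060 and 9216 CPM in CD and 2067, 3297 and 7170 CPM in HFD mice at 8 weeks. The 20 week values were 3844, 4851 and 6816 CPM in CD and 2622, 2852 and 4150 CPM in HFD mice, and at 34 weeks 95.9, 1235 and 2263 CPM and 360, 648 and 1095 CPM. The HFD median was the lower one at each time, and 5 of 6 HFD mice at 20 weeks were below every CD mouse. The log2 fold change did not pass the threshold, at -0.80 (95% interval -1.72 to 0.13, adjusted p = 0.15 by limma), -0.67 (-1.59 to 0.26, adjusted p = 0.21) and -0.33 (-1.19 to 0.54, adjusted p = 0.54). It did pass at 20 weeks when that time was fitted alone (-0.67, adjusted p = 0.0041 by limma), at 8 weeks without CD mouse 6 of 34 weeks, the lowest Thbs1 value of all (-0.80, adjusted p = 0.045), and at the 3 times with array weights (-1.13, -0.77 and -0.98, adjusted p = 0.00048, 0.0053 and 0.026).

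Thbs2 (chr17:14665500-14694262) encodes thrombospondin 2, an inhibitor of vessel growth that helps to clear matrix metalloproteinases. Its lowest, median and highest values were 51.1, 180 and 305 CPM in CD and 38.9, 107 and 214 CPM in HFD mice at 8 weeks. At 20 weeks they were 59.9, 64.9 and 94.0 CPM in CD and 103, 133 and 178 CPM in HFD mice, and at 34 weeks 22.4, 104 and 220 CPM and 101, 122 and 208 CPM. The groups overlapped at 8 and 34 weeks, and at 20 weeks all HFD mice were above all CD mice. The log2 fold change was -0.55 (SE 0.45, adjusted p = 0.33 by limma), 1.00 (SE 0.45, adjusted p = 0.059) and 0.67 (SE 0.42, adjusted p = 0.20). The 20 week value passed the threshold with that time fitted alone (adjusted p = 8.9e-05 by limma), with array weights (1.04, adjusted p = 0.0026) and without 1 of 4 CD mice of other times (mouse 4 at 8 weeks, or mouse 4, 5 or 6 at 34 weeks, adjusted p = 0.047, 0.039, 0.049 and 0.043). With array weights the 8 week value of -0.999 also passed (adjusted p = 0.00905 by limma).

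Whether the diet difference itself changed with time was tested with interaction terms. Each uses both diets at 2 times, so that they share samples with the comparisons above and with each other. The times are different mice of different ages, so that duration of the diet, age and a possible batch cannot be told apart. The diet difference was smaller at 34 than at 20 weeks for 3 members, where 6.31% of all genes tested were called in that direction and 10.5% in either. They were Fbln2 (-2.65, SE 0.72, adjusted p = 0.016 by limma), Fbn1 (-2.25, SE 0.67, adjusted p = 0.029) and Sparc (-1.13, SE 0.36, adjusted p = 0.040). It was smaller at 34 than at 8 weeks for 2 members, Fbln2 (-2.14, SE 0.72, adjusted p = 0.024) and Sparc (-1.09, SE 0.36, adjusted p = 0.023), against 15.9% of all genes in that direction and 28.8% in either. Between 20 and 8 weeks limma called 0 of 9 members, edgeR 0 and DESeq2 0, against 4.49% of all genes, and 2 (Vcan and Thbs2) had an unadjusted p under 0.05. Eln, tested with the lower filter, had a 34 against 8 week interaction of -1.35 (SE 0.47, adjusted p = 0.032 by limma), which was not called without a filter (adjusted p = 0.055). The other members did not pass, and for Postn the 34 against 20 week interaction was -1.29 with a 95% interval from -2.86 to 0.28.

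The interaction of Sparc at 34 against 20 weeks was close to the threshold. Its call was lost in 15 of the 38 fits that leave out 1 mouse, with values from -1.16 to -0.98 and adjusted p of at most 0.089. These were CD mice 3, 4 and 5 and HFD mice 1, 2, 3 and 6 at 20 weeks, and CD mice 1, 2, 3 and 7 and HFD mice 2, 3, 4 and 5 at 34 weeks. It was also lost with TMM factors (-1.003, adjusted p = 0.051 by limma) and without a filter on low genes (adjusted p = 0.095), and was called with edgeR (-1.05, adjusted p = 0.042) and DESeq2 (-1.09, adjusted p = 0.014). The 34 against 8 week interaction of Sparc was lost without a filter (adjusted p = 0.061 by limma) and without HFD mouse 3 of 34 weeks (-0.98, adjusted p = 0.051). The interaction of Fbn1 was lost without CD mouse 3 or 4 or HFD mouse 3 or 5 of 20 weeks (-2.04, -2.18, -2.15 and -2.06, adjusted p = 0.060, 0.052, 0.053 and 0.053 by limma) and with edgeR on whole reads (-2.05, adjusted p = 0.052). That of Fbln2 at 34 against 20 weeks was called in all 38 such fits. Without the mouse with the most macrophage RNA in each group, an alternative added after the data were seen, the 34 against 8 week interactions of Sparc and Fbln2 were lost (-0.99 and -1.85, adjusted p = 0.053 and 0.075).

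Between 20 and 34 weeks in CD mice 4 of the 9 members were called, 2 higher and 2 lower, and 5 were not called. Each time is a different set of mice, so that time on diet, age and a possible batch, which the labels do not give, cannot be told apart. This holds for the comparisons between times in HFD mice too. Fbln2 and Sparc rose, with log2 fold changes of 2.13 (SE 0.49, adjusted p = 0.00036 by limma) and 1.27 (SE 0.25, adjusted p = 5.1e-05), and Thbs1 and Tnc fell by 2.59 (SE 0.43, adjusted p = 4.9e-06) and 2.34 (SE 0.59, adjusted p = 0.00091) on the log2 scale. Of all genes tested 62.5% were called in this comparison, 41.1% higher and 21.4% lower. Every 34 week CD mouse was above every 20 week CD mouse for Sparc and below it for Thbs1, as were 12.0% and 7.96% of all genes. Fbln2 was spread over the 34 week CD mice, with mouse 6 at 7.28 CPM and mouse 7 at 175 CPM, so that 6 of 8 mice were above every 20 week CD mouse. Against 8 weeks, 34 week CD mice had higher Fbln2 (2.37, SE 0.49, adjusted p = 9.6e-05), Fbn1 (1.55, SE 0.46, adjusted p = 0.0041) and Sparc (0.74, SE 0.25, adjusted p = 0.010) and lower Thbs1 (-2.90, SE 0.43, adjusted p = 8.8e-07) and Tnc (-3.09, SE 0.59, adjusted p = 3.3e-05), while 64.7% of all genes were called, 40.1% higher and 24.6% lower. Between 8 and 20 weeks limma called 0 of 9 members in CD mice and edgeR 0, against 3.58% of all genes. Thbs2 was the 1 member with an unadjusted p under 0.05, and was called lower at 20 weeks by DESeq2 (1 member called).

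**Figure D3:**
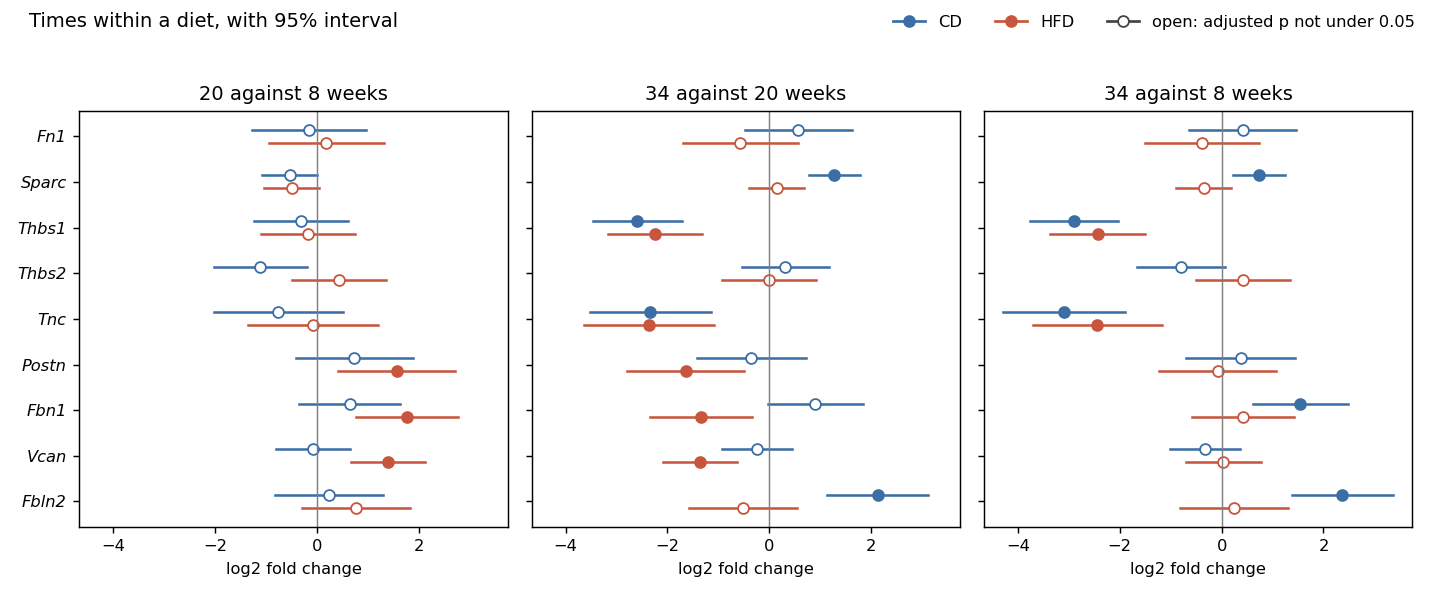
Log2 fold change between times within CD mice (blue) and within HFD mice (red) on the log2(CPM + 1) scale for the 9 members tested, with the 95% interval, filled where the adjusted p of limma is under 0.05. From 20 to 34 weeks Thbs1 and Tnc are below 0 in both diets, with values for CD mice of -2.59 and -2.34 and for HFD mice of -2.25 and -2.36, and Sparc and Fbln2 are above 0 in CD mice.

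In HFD mice Fbn1, Postn and Vcan rose from 8 to 20 weeks and fell again by 34 weeks. The rise was 1.76 (SE 0.49, adjusted p = 0.0062 by limma) for Fbn1, 1.56 (SE 0.57, adjusted p = 0.030) for Postn and 1.39 (SE 0.36, adjusted p = 0.0033) for Vcan on the log2 scale, where 36.5% of all genes tested were called and 21.2% were called higher. Every 20 week HFD mouse was above every 8 week HFD mouse for Vcan, as for 15.0% of all genes. From 20 to 34 weeks these genes fell by 1.34 (SE 0.49, adjusted p = 0.038), 1.64 (SE 0.57, adjusted p = 0.027) and 1.36 (SE 0.36, adjusted p = 0.0054). Thbs1 fell by 2.25 (SE 0.46, adjusted p = 0.00060) and Tnc by 2.36 (SE 0.63, adjusted p = 0.0055) over the same interval, and 30.2% of all genes were called and 12.5% were called lower. All 34 week HFD mice were below all 20 week HFD mice for Thbs1, Tnc and Postn, as for 4.42% of all genes. Against 8 weeks, Thbs1 (-2.43, SE 0.46, adjusted p = 5.7e-05) and Tnc (-2.44, SE 0.63, adjusted p = 0.0015) were the members called at 34 weeks in HFD mice, where 52.5% of all genes were called and 20.8% were called lower.

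Whether Thbs1 and Tnc fell by different amounts in the 2 diets was not resolved. The 34 against 8 week interaction was 0.47 for Thbs1 (95% interval -0.80 to 1.74, adjusted p = 0.61 by limma) and 0.65 for Tnc (-1.09 to 2.39, adjusted p = 0.60). The rise and fall of Postn and the fall of Fbn1 in HFD mice were close to the threshold (adjusted p = 0.030, 0.027 and 0.038 by limma). Their calls were lost on leaving out any 1 of several mice, whereas the rise and fall of Vcan were called in all 38 such fits. The rises of Vcan and Fbn1 were not called with either the macrophage or the progenitor marker mean in the fit, while the fall of Vcan was. The log2 fold changes of these rises were then at least 0.27 and 0.09 (adjusted p of at most 0.57 and 0.90 by limma). Calls over all genes also became fewer in those fits, as given below. The rise of Postn was lost without HFD mouse 1 or 2 of 8 weeks or mouse 3 or 5 of 20 weeks (1.42, 1.15, 1.47 and 1.497, adjusted p = 0.0675, 0.107, 0.0588 and 0.0567 by limma), and with edgeR (1.27, adjusted p = 0.088) and DESeq2 (1.30, adjusted p = 0.059). Its fall was lost without HFD mouse 3 of 20 weeks or mouse 1 or 6 of 34 weeks (-1.54, -1.38 and -1.38, adjusted p = 0.051, 0.076 and 0.071 by limma) and with edgeR (-1.45, adjusted p = 0.068). The fall of Fbn1 was lost in 9 of 38 fits that leave out 1 mouse, which were those without HFD mouse 1, 2, 3, 5 or 6 of 20 weeks or mouse 1, 4, 5 or 6 of 34 weeks, with values from -1.38 to -1.12 and adjusted p of at most 0.10. It was also lost without a filter (adjusted p = 0.063 by limma) and without the mouse with the most macrophage RNA in each group (-1.035, adjusted p = 0.097).

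Levels of macrophage and progenitor markers moved with several of these results. At 20 weeks the mean of the progenitor and fibroblast markers on the log2(CPM + 1) scale was 3.45 to 4.46 in CD and 5.06 to 5.59 in HFD mice, and that of the macrophage markers 4.14 to 6.95 and 7.39 to 8.31, without overlap, so that these means and the diet cannot be told apart at that time. At 34 weeks they were 3.79 to 5.04 and 4.85 to 5.27 for the progenitor and 5.27 to 8.79 and 7.54 to 9.10 for the macrophage markers, with overlap. With the macrophage mean in the fit, 3 of 9 members were called higher with HFD at 8 weeks and the same number at 20 weeks, which were Sparc, Fbn1 and Fbln2 both times, and 0 at 34 weeks (1 of either sign with an unadjusted p under 0.05). Of all genes tested 20.8%, 14.7% and 4.52% were called higher in that fit at the 3 times, so that the calls of other genes also became fewer. Fn1 then had a log2 fold change of 0.26, -0.39 and -0.73 (adjusted p = 0.59, 0.52 and 0.18 by limma) at the 3 times. Sparc was nearly as high as without the covariate, at 1.22 and 1.19 (adjusted p = 0.0019 and 0.014) at 8 and 20 weeks. With the progenitor mean in the fit, 0 members were called higher with HFD at any time and Vcan was called lower at 8 weeks (-1.15, adjusted p = 0.016 by limma), while 5.91%, 0.261% and 4.49% of all genes were called higher. The number of members with an unadjusted p under 0.05 in either direction was then 2, 0 and 1. The loss of calls with this covariate thus ran over all genes and was not shown to be particular to the members. In CD mice, where 15 of 16 macrophage markers rose from 8 to 34 weeks, the rises of Sparc, Fbn1 and Fbln2 over that time were not called with the macrophage mean in the fit (0.58, -0.17 and 0.84, adjusted p = 0.15, 0.77 and 0.18 by limma). The share of all genes called in that 8 to 34 week fit is not given. From 20 to 34 weeks the rises of Sparc and Fbln2 in CD mice were called with either covariate. Their log2 fold changes were then at least 0.98 and 1.15 (adjusted p of at most 0.0010 and 0.030 by limma). The fall of Thbs1 and Tnc from 8 to 34 weeks was called with either covariate in both diets.

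**Figure D4:**
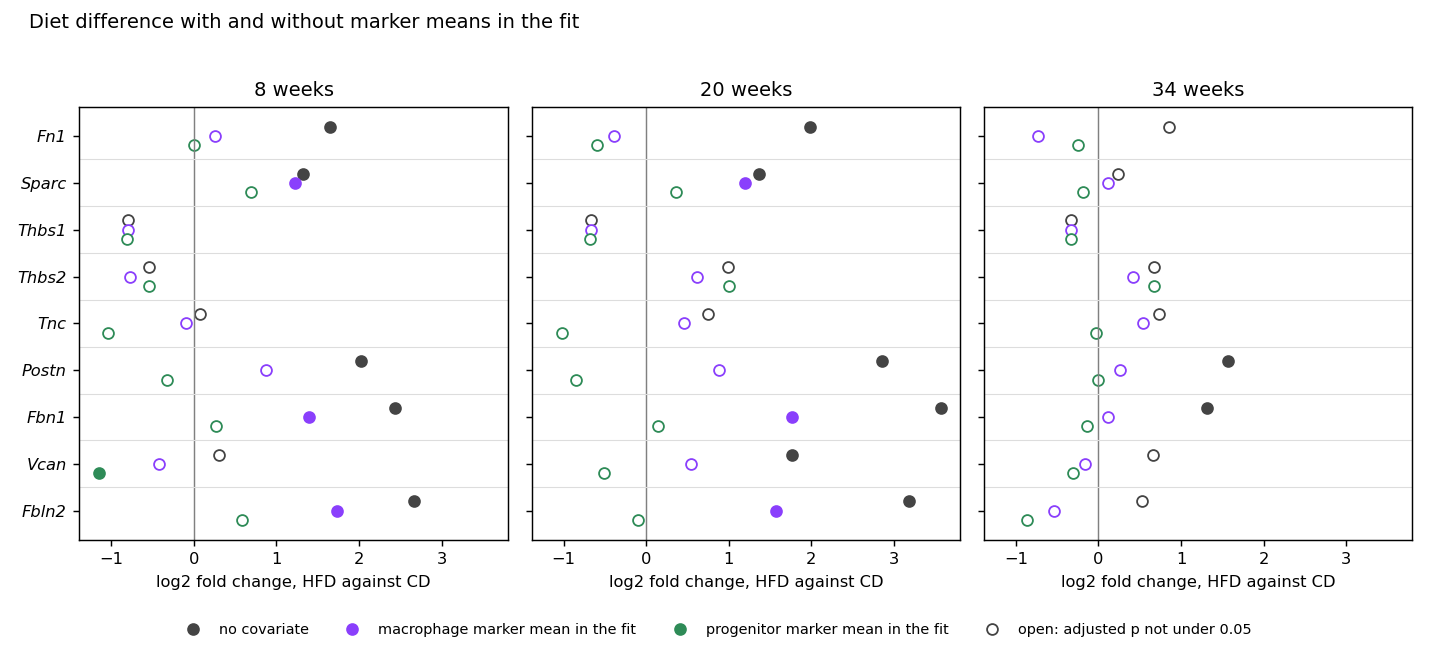
Log2 fold change of HFD against CD on the log2(CPM + 1) scale for the 9 members tested at 8, 20 and 34 weeks without a covariate (dark grey), with the macrophage marker mean in the fit (purple) and with the progenitor marker mean in the fit (green), filled where the adjusted p of limma is under 0.05. Fn1 is at 1.65 at 8 weeks without a covariate and at 0.26 with the macrophage mean, while Sparc at 8 weeks is at 1.22 with the macrophage mean and at 0.69 with the progenitor mean.

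Whether the members varied together between mice of the same group was asked with deviations from the group means of log2(CPM + 1) over 38 mice, with a permutation test that shuffles mice within groups. Of 45 pairs 21 passed an adjusted p of 0.05, all with a positive correlation, and 20 passed by Spearman's rho. The share that passes among pairs of all genes was not determined, so that this count is not shown to be particular to the members. All 15 pairs among Fn1, Postn, Fbn1, Eln, Vcan and Fbln2 passed, 6 genes picked out after the values were seen, but only 6 of these pairs did so with the macrophage mean removed. The highest was Fbn1 with Vcan (Pearson r = 0.86, Spearman rho = 0.80, permutation p = 1e-05 and 2e-05, adjusted p = 6.4e-05 and 0.00010, and r = 0.81 without the 2 mice farthest from the median). Fbn1 with Eln followed (r = 0.85, rho = 0.83, permutation p = 1e-05 for both, the smallest that 100000 permutations can give, adjusted p = 6.4e-05 and 7.5e-05, and r = 0.81 without 2 mice). Outside these pairs, Thbs1 and Tnc were at r = 0.60 and rho = 0.69 (permutation p = 1e-05 for both, adjusted p = 6.4e-05 and 7.5e-05, r = 0.61 without 2 mice). Thbs1 with Thbs2 reached r = 0.53 and rho = 0.53 (permutation p = 0.016 and 0.0056, adjusted p = 0.035 and 0.014, r = 0.45 without 2 mice), whereas Thbs2 with Tnc did not pass (r = 0.29, rho = 0.31, permutation p = 0.10 and 0.089, adjusted p = 0.19 and 0.16, r = 0.24 without 2 mice). Tnc also passed with Vcan (r = 0.46, rho = 0.44, permutation p = 0.0094 and 0.012, adjusted p = 0.022 and 0.028, r = 0.41 without 2 mice), and with Fbln2 by Pearson's r but not by rho (r = 0.43, rho = 0.34, permutation p = 0.012 and 0.064, adjusted p = 0.027 and 0.12, r = 0.38 without 2 mice). Sparc varied with Fbln2 (r = 0.62, rho = 0.53, permutation p = 0.00044 and 0.0028, adjusted p = 0.0014 and 0.0079, r = 0.67 without 2 mice) and with Tnc (r = 0.50, rho = 0.46, permutation p = 0.00265 and 0.0062, adjusted p = 0.0074 and 0.015, r = 0.43 without 2 mice), but its correlation with Fn1 was 0.13 (rho = -0.002, permutation p = 0.44 and 0.99, adjusted p = 0.58 and 0.99).

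**Figure D5:**
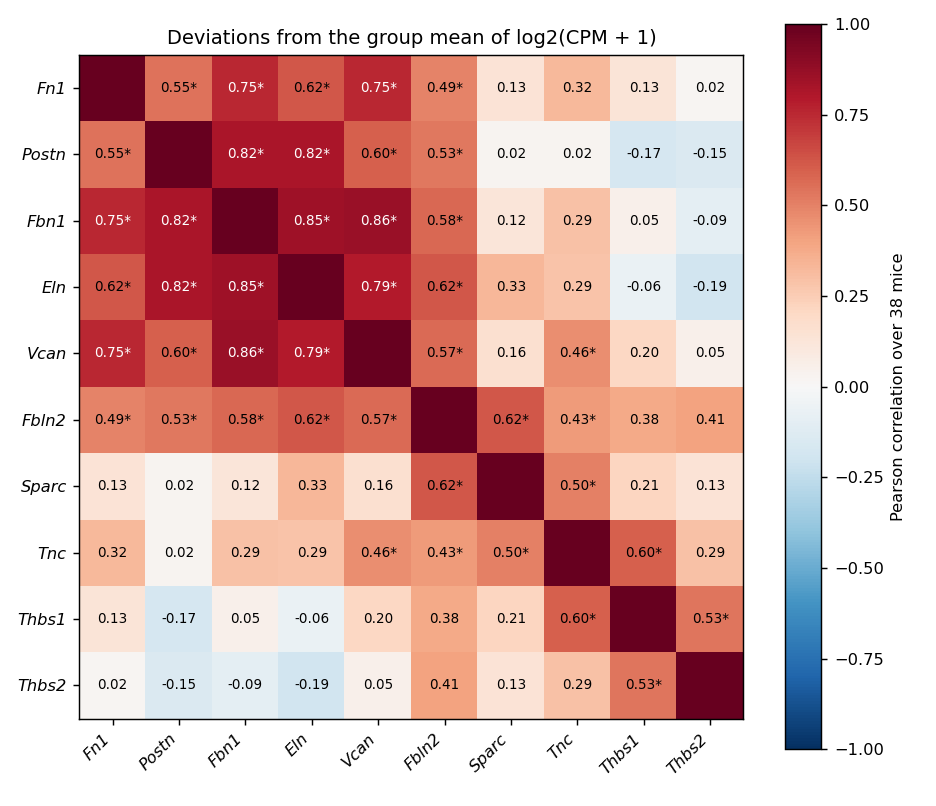
Pearson correlation between each pair of members over 38 mice, from deviations of log2(CPM + 1) from the group mean (colour from -1 to 1, with the value in each cell and a star where the adjusted permutation p is under 0.05). The 6 genes from Fn1 to Fbln2 form a block of 15 starred pairs with values from 0.49 to 0.86, and 6 more starred pairs lie outside it.

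The correlations were taken over libraries that share the spread of other cells between mice. With the macrophage mean removed from both genes 13 of 45 pairs passed. Among the 6 genes from Fn1 to Fbln2 these were 6 of 15, the pairs of Fbn1 with Postn, Eln and Vcan, of Eln with Postn and Vcan, and of Fn1 with Vcan. None of the 5 pairs of Fbln2 with these genes passed (0 of 5). Fn1 with Postn went from 0.55 to -0.05 (rho = -0.11, permutation p = 0.79 and 0.53, adjusted p = 0.82 and 0.66, r = -0.07 without 2 mice), and Fn1 with Fbln2 from 0.49 to -0.01 (rho = 0.05, permutation p = 0.94 and 0.80, adjusted p = 0.94 and 0.82, r = 0.02 without 2 mice). Without the 34 week CD mice 22 passed, and 2 of these were negative, Thbs2 with Postn (r = -0.67, rho = -0.68, permutation p = 0.00077 and 0.00029, adjusted p = 0.0025 and 0.0011, r = -0.58 without 2 mice) and Thbs2 with Eln (r = -0.61, rho = -0.55, permutation p = 0.0029 and 0.0068, adjusted p = 0.0074 and 0.016, r = -0.48 without 2 mice). In all 38 mice these pairs were at -0.15 and -0.19 and did not pass.

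The genes most alike each member other than Thbs2 over all 38 mice, by Pearson correlation of log2(CPM + 1) with the differences between groups included, are given as a description. For Fbn1 they were Col14a1 (0.97), Pla1a (0.96) and Mfap5 (0.96), for Postn Pdgfra (0.94), Lama2 (0.92) and Sparcl1 (0.92), and for Eln Pdgfrb (0.92), Ace (0.89) and Fbn1 (0.88). Col14a1, Mfap5 and Pdgfra are on the progenitor and fibroblast list and Pdgfrb is on the mural list. For Fn1 they were Ceacam1 (0.90), Samsn1 (0.86) and Itgam (0.85), of which Itgam, an integrin chain of myeloid cells, is a macrophage marker. For Sparc they were Lep, which encodes leptin (0.96), Fam114a1 (0.95) and Zc2hc1a (0.95), and for Fbln2 Ephx1 (0.95), Mrc2 (0.95) and Col16a1 (0.95). For Thbs1 they were the transcription factors Fosl1 (0.96) and Myc (0.96) with Tsc22d2 (0.96), and for Tnc Ubtd2 (0.91), Tnfrsf12a (0.89) and Creb3l1 (0.89). Vcan was closest to Orai2 (0.90), Slc2a6 (0.89) and Rab11fip1 (0.86).

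Most tested partners of the members in the fibre were also higher with HFD at 8 and 20 weeks. Of 14 tested elastic fibre and microfibril partners 9 were called higher and 1 lower at 8 weeks, 11 and 0 at 20 weeks, and 5 and 1 at 34 weeks, with a median log2 fold change of 0.81, 1.07 and 0.54. Mfap5, a microfibril glycoprotein, had the largest rise at 8 weeks, from 0.77 ± 0.28 CPM (SD, n = 6) in CD to 6.90 ± 4.80 CPM (SD, n = 6) in HFD mice (log2 fold change 1.94, adjusted p = 0.00012 by limma), and at 20 weeks (3.29, adjusted p = 3.7e-08). At 34 weeks it was Lox, the enzyme that crosslinks elastin and collagen (1.32, adjusted p = 0.0025). Ltbp1 at 8 weeks (-0.82, adjusted p = 0.031) and Ltbp2 at 34 weeks (-0.42, adjusted p = 0.014), which encode latent TGF-beta binding proteins, were the genes called lower. Of 17 related glycoproteins 13 were higher and 4 lower at 8 and at 20 weeks, and 7 and 1 at 34 weeks. Fstl1, a member of the SPARC family, had the largest rise at 8 and 34 weeks (2.504 and 2.81, adjusted p = 0.00049 and 0.00011), Spp1, which encodes osteopontin, at 20 weeks (4.95, adjusted p = 6.1e-06), and the largest falls were those of Vtn (vitronectin) at 8 weeks (-1.49, adjusted p = 0.00011), Abi3bp at 20 weeks (-1.08, adjusted p = 4.7e-05) and Nid2 (nidogen 2) at 34 weeks (-0.92, adjusted p = 0.0060).

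Of 12 proteoglycan and hyaluronan genes 6 were higher and 2 lower at 8 weeks, 9 and 2 at 20 weeks and 4 and 1 at 34 weeks. Ncan, which encodes neurocan of the versican family, had the largest rise at 8 weeks (3.28, adjusted p = 4.8e-07 by limma) and Lum (lumican) at 20 and 34 weeks (3.21 and 2.19, adjusted p = 4.1e-06 and 0.00068). Prg4, which encodes lubricin, had the largest fall at 8 and 20 weeks (-3.55 and -2.75, adjusted p = 1.0e-06 and 7.2e-06), from 131 ± 29.3 CPM (SD, n = 6) in CD to 11.7 ± 8.14 CPM (SD, n = 6) in HFD mice at 8 weeks, and Podn (podocan) at 34 weeks (-1.004, adjusted p = 0.014). Among 18 receptors of the members 8, 13 and 14 were higher and 3, 1 and 0 lower at the 3 times. The largest rises were those of Sdc1 (syndecan 1) at 8 weeks (1.74, adjusted p = 0.0023), Itga4 (integrin alpha 4, a fibronectin receptor of leukocytes) at 20 weeks (3.44, adjusted p = 6.5e-07) and Cd44, the hyaluronan receptor, at 34 weeks (1.86, adjusted p = 0.0047). Sdc4 at 8 weeks (-0.94, adjusted p = 0.013) and Egfr at 20 weeks (-0.75, adjusted p = 0.0053) had the largest falls.

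Of 25 proteases and protease inhibitors that act on the members 13, 17 and 14 were higher and 3, 2 and 2 lower with HFD. Mmp12, the elastase of macrophages, had the largest rise at each time (3.60, 5.78 and 3.88, adjusted p = 0.00020, 1.2e-07 and 7.0e-05 by limma), and reached 1761 ± 842 CPM (SD, n = 6) in 20 week HFD mice. Mmp19 at 8 weeks (-0.93, adjusted p = 0.0011), Mmp9 at 20 weeks (-1.81, adjusted p = 1.8e-05) and the inhibitor Timp4 at 34 weeks (-1.55, adjusted p = 0.00032) had the largest falls. Of 13 tested genes listed for TGF-beta signalling or for MRTF and SRF 3, 7 and 3 were higher and 1, 0 and 0 lower. Of all genes tested 29.8%, 38.3% and 27.5% were called higher at the 3 times. The MRTF genes themselves, listed as Mkl1 and Mkl2, were not matched by symbol and so were not tested. Acta2, which encodes smooth muscle actin, had the largest rise at 8 and 20 weeks (1.74 and 2.34, adjusted p = 0.0135 and 0.00075), whereas Tgfbr1 had the largest fall at 8 weeks (-0.62, adjusted p = 0.040) and the largest rise at 34 weeks (1.24, adjusted p = 0.00014). All of these counts stand against the shares of all genes called given above, and the part of other cells in them was not tested.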

How the data were processed

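The deposited table holds CPM values that the authors made by alignment with STAR 2.5.2b to mm10, counting over exons with featureCounts (Subread 1.5.1) against GENCODE, merging of 3 technical replicates per mouse (114 labelled samples, 38 mice) and removal of genes without an Entrez ID. Each column sums to 1000000, so that no TMM factor is visible in it. Multiplying by the recovered library size gave whole reads for 100% of values (tolerance 0.1 reads), and these reads, 9275711 to 15480388 per mouse (median 12522298), were used for the count tests. The precision of a value is limited by these depths.

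CPM values were tested as log2(CPM + 1) with limma 3.58.1 (R 4.3.3), with genes of mean above 2 (10343 of 29132), the 6 groups in 1 fit, a mean-variance trend, two-sided tests and Benjamini-Hochberg adjustment over all genes tested. A fold change on this scale understates that of low genes. Settings changed 1 at a time were edgeR 4.0.16 (quasi-likelihood) and DESeq2 1.42.0 on whole reads, the scaling, filter, pseudocount, array weights, replicate block, times fitted alone, marker means as covariates (members excluded) and 1 mouse left out. Correlations were tested with 100000 permutations. The fit was tested on simulated data. The genes described and the lists were chosen with earlier results of these data known. Named list genes are those with the largest called rise and fall per list and time, and likeness genes the 3 closest per member, of which those of Thbs2 are not reported here. List symbols without a match in the table and the stromal vascular fraction were not analysed here. Mice with the same replicate number did not deviate together at the median over all groups, and the main fit took no account of these numbers. Whether some such mice were paired within a time was not tested.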

Additional observations from a re-analysis of the deposited data

Results flagged for a closer look

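The 34 week CD mouse 5 had 115 CPM of Postn, against 5.92 to 17.8 CPM in the other 7 mice of its group, and 8.04 CPM of Eln, against 1.27 to 3.34 CPM. The gap to the nearest mouse was 0.65 and 0.53 of the whole range of the group on the log2(CPM + 1) scale, above Dixon's critical value of 0.526 for 8 samples. These were 2 of 60 groups and genes examined, of which chance flags about 1 in 20. This mouse also had the highest macrophage and progenitor marker means of its group (8.79 and 5.04), and their part in these values was not tested.

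The diet difference was called different between times in 5 of 27 interaction tests of the members, which share samples. Of all genes tested 4.49%, 10.5% and 28.8% were called for 20 against 8, 34 against 20 and 34 against 8 weeks. For the members the diet difference was smaller at 34 than at 20 weeks by -1.13 for Sparc, -2.25 for Fbn1 and -2.65 for Fbln2, and smaller at 34 than at 8 weeks by -1.09 for Sparc and -2.14 for Fbln2 on the log2 scale.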

How the results depend on the processing

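Of the values recomputed with 1 mouse left out, 1888 kept their direction and side of the threshold, 40 lost and 6 gained a call and 4 turned. Under the other settings 705 did so, 46 lost and 11 gained a call and 30 turned. The cause was not tested. Relative to CPM, TMM factors moved the median of all genes at 8 and 20 weeks from 0.11 and 0.14 to 0.01 and -0.07.

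With the macrophage mean in the fit, the members called with HFD were 3, 3 and 0 at 8, 20 and 34 weeks, 7 between 20 and 34 weeks in CD mice, and 1 (8 to 20 weeks) and 6 (8 to 34 weeks) in HFD mice, and 13 correlated pairs passed, while 35.0%, 21.9%, 7.54%, 57.8%, 4.80% and 13.1% of all genes were called in these 6 comparisons. With the progenitor mean they were 1, 0 and 0 for diet, 0 for the 34 against 20 week interaction, and 1 (8 to 20 weeks) and 3 (20 to 34 weeks) in HFD mice, against 12.8%, 0.822%, 7.88%, 4.75%, 8.44% and 41.3% of all genes. Array weights gave 8 at 8 weeks, 4 at 34 weeks, 2 for the 20 against 8 week interaction, 1 in CD mice and 5 in HFD mice between 8 and 20 weeks, against 68.0%, 39.7%, 41.2%, 14.9% and 61.8% of all genes. At 34 weeks edgeR, DESeq2 and each time fitted alone gave 1 (43.3%, 45.6% and 23.8% of all genes), and DESeq2 gave 1 between 8 and 20 weeks in CD mice (5.70%). For the 34 against 8 week interaction 1 was called without a filter (14.5%) and 0 without the mouse with the most macrophage RNA in each group (2 with an unadjusted p under 0.05; 27.4%), which gave 1 for 20 against 8 weeks (11.4%).

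With 1 mouse left out the counts ran from 4 to 6 at 8 weeks, 6 to 7 at 20 weeks, 0 to 3 at 34 weeks, 0 to 1, 1 to 4 and 1 to 2 for the interactions (20 against 8, 34 against 20, 34 against 8 weeks), and 3 to 5 between 20 and 34 weeks in HFD mice. The shares of all genes called in these fits are not given, so that the ranges are not shown to be particular to the members. Tnc at 8 weeks ran from -0.43 to 0.51 and turned in 4 such fits.

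Mice with the same replicate number were not alike at the median (correlation of deviations -0.07, from -0.68 to 0.55 over the pairs, 4 of 38 mice closest to their own number). With the replicate block 5, 7 and 0 members were called for diet at the 3 times (44.2%, 57.1% and 43.7% of all genes) and 2 for the 34 against 20 week interaction (10.2%), and Thbs1 at 34 weeks turned to 0.0820.

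At 8 weeks Tnc turned with TMM (-0.0277), median-of-ratios factors (-0.0357), the macrophage mean (-0.0918) and the progenitor mean (-1.04), and Vcan with the macrophage (-0.42) and progenitor mean (-1.15). With the progenitor mean Postn turned at 8 (-0.33), 20 (-0.85) and 34 weeks (-0.00963), Fn1 at 20 (-0.60) and 34 weeks (-0.25), Tnc at 20 (-1.02) and 34 weeks (-0.0241), Vcan at 20 (-0.51) and 34 weeks (-0.31), Fbln2 at 20 (-0.10) and 34 weeks (-0.87), Sparc (-0.19) and Fbn1 (-0.14) at 34 weeks, and Postn in HFD mice from 8 to 20 weeks (-0.25). With the macrophage mean Fn1 turned at 20 (-0.39) and 34 weeks (-0.73), Vcan (-0.16) and Fbln2 (-0.54) at 34 weeks, and Fbn1 in CD mice from 8 to 34 weeks (-0.17). At 34 weeks array weights turned Sparc (-0.0573) and Fbln2 (-0.0937), and edgeR (-0.0994) and DESeq2 (-0.0864) turned Fbln2. Depth limits Eln most, with 4 reads in the lowest mice.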

Other observations

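Single mice held the extremes of many members at once. Among 20 week CD mice, mouse 3 was lowest for 8 of the 10 members and mouse 1 highest for 8, and these mice had the lowest and highest macrophage marker means of the group (4.14 and 6.95). Among 8 week HFD mice, mouse 2 was lowest for 8 members and had the lowest progenitor marker mean (3.76), but not the lowest macrophage mean (5.61). The 34 week HFD mouse 1 was lowest for 5 members and had the lowest of neither mean. The 20 week HFD mouse 4 and the 34 week CD mouse 6 were each lowest for 7 members, and each had the lowest macrophage and progenitor means of its group.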
